A study of Mus musculus with 6 samples.

Results

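Genes that make, degrade, carry or sense retinoic acid were compared between tooth germs of the lower molar and nearby oral tissue in mouse embryos. The 10 genes were chosen by name: the synthesis enzymes Aldh1a1, Aldh1a2 and Aldh1a3, the breakdown enzymes Cyp26a1 and Cyp26b1, the nuclear receptors Rara, Rarb and Rarg, and the carrier proteins Crabp1 and Crabp2. All 10 were on the array, among 19057 genes measured, and 18 probes with a single gene symbol reported on them. The probe of each gene that was brightest on average is described, and any others are set beside it.

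The series holds 3 libraries titled tooth germ and 3 titled oral tissue, all from embryos of outbred CD-1 mice at embryonic day 13.5. Each library is total RNA pooled over several embryos, and same-numbered libraries come from one litter, so the 6 one-colour Illumina bead arrays form 3 litter pairs. No embryo carried a mutation or received a treatment, per the labels. The oral tissue is labelled as jaw tissue free of tooth and bone. The titles are contradicted by the source name and tissue fields, which give the tooth germ to the opposite set of 3 libraries. Titles are used to name the groups here. Should the other fields hold true, all differences below change sign. The dental genes Msx1 and Shh were higher in the libraries titled tooth germ (values below), as the titles would have it. Of 10 markers of dental and jaw mesenchyme 6 were higher there and 0 lower.

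Marker genes were read in the titled groups before the retinoic acid genes. Msx1, a homeobox gene of dental mesenchyme, averaged 12.56 ± 0.174 in titled tooth germ, against 11.09 ± 0.311 in titled oral tissue (log2 signal, SD, n = 3 each), and Shh, a ligand of dental epithelium, averaged 7.90 ± 0.281 in titled tooth germ but 7.12 ± 0.161 in titled oral tissue. The muscle regulator Myod1 averaged 7.49 ± 0.0308 in titled tooth germ, against 8.97 ± 0.228 in titled oral tissue, and Myog, which acts after it, averaged 7.92 ± 0.0258 in titled tooth germ, against 9.46 ± 0.246 in titled oral tissue. Of 12 skeletal muscle markers 12 were lower in titled tooth germ, with list means of 9.51 to 9.77 in tooth germ libraries and 11.09 to 11.74 in oral tissue libraries. Of 9 neuronal markers 3 were lower, or 5 when libraries were compared within litters (list means 7.43 to 7.54 in tooth germ and 7.85 to 8.53 in oral tissue), and of 6 tendon and connective tissue markers 4 were lower (8.27 to 8.36 in tooth germ and 8.95 to 9.11 in oral tissue). Of 13 surface epithelium markers 8 were higher and 1 was lower (10.11 to 10.22 in tooth germ and 9.63 to 9.75 in oral tissue), and of 10 markers of dental and jaw mesenchyme 6 were higher (10.28 to 10.48 in tooth germ and 9.43 to 9.83 in oral tissue). The remaining markers of these lists were not called. The part of these marker differences in the results below was not tested, and in pooled tissue fewer cells of a type and less RNA per cell cannot be told apart.

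Retinoic acid is a diffusible derivative of vitamin A. Retinol is oxidised to retinaldehyde, which the Aldh1a enzymes turn into retinoic acid, and the Cyp26 enzymes of the cytochrome P450 family hydroxylate retinoic acid and so clear it. Cells with Aldh1a activity act as sources and cells with Cyp26 activity as sinks, and the balance shapes gradients in the embryo. Retinoic acid binds nuclear receptors of the Rar family, which pair with Rxr receptors on DNA at direct repeats of a short hexamer. Crabp proteins bind retinoic acid in the cytoplasm. Rarb and Cyp26a1 are textbook direct targets of the hormone, and altered retinoic acid supply is known to disturb tooth formation in the mouse.

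The promoter sequences of the genes show which of them carry such a repeat close to the start of transcription. RefSeq promoter windows of 300 bases (250 before and 50 after a start, GRCm38.p6) were available for 8 of the 10 genes, 13 windows in all. Both strands were searched for a pair of hexamers in the same orientation, 5 bases apart. Each hexamer was AGGTCA, where the first base could also be G and the third base T. The classical retinoic acid response element has this spacing. The pair was found in 2 of the 13 windows, one of Rarb and one of Cyp26a1, and in 32 of all 32851 windows of the same length (0.0974%). Pairs 1 or 2 bases apart were also searched for, and none was found in the 13 windows. Rarb and Cyp26a1 are known targets, as said above, so the share is given as a description only. The elements lie at chr14:16575507-16575535 (printed on the minus strand, which is that of Rarb) and chr19:37697770-37697798 (printed on the minus strand, opposite to Cyp26a1), each with 6 flanking bases on either side. The hexamers are in capitals.
Rarb element: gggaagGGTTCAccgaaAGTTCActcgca
Cyp26a1 element: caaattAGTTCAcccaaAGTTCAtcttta
The elements of 17 bases are identical at 15 positions. Both lie inside the annotated span of their gene (chr14:16430839-17082331 for Rarb, chr19:37697738-37701536 for Cyp26a1). The start meant here is therefore that of the window, not the outermost annotated start of the gene. In the Rarb window the element ends 37 bases before the start, as the 250 bases upstream of it show (chr14:16575477-16575726, minus strand, 58% G+C, hexamers of the element in capitals).
Rarb upstream: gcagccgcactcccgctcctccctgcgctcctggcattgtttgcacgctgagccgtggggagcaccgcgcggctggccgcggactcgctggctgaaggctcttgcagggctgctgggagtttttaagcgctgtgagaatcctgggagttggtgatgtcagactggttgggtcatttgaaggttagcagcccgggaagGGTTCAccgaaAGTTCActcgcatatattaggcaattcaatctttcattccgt
The window of Cyp26b1, which among the 10 genes had the largest difference between the tissues, held no such hexamer on either strand. This is not particular to Cyp26b1, since 7 of the 13 windows held none, among them the only windows of Crabp1 and Aldh1a2. Single hexamers are common and occurred in 43.7% of all windows. The part of the Cyp26b1 window upstream of the gene's outermost annotated start is shown for comparison (chr6:84593909-84594060, minus strand, 152 bases, 65.1% G+C, no capitals because nothing matched).
Cyp26b1 upstream: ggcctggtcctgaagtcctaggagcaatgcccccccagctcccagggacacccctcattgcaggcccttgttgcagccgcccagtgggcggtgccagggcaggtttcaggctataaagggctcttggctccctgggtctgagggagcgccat
A match describes letters only and was not tested for binding, and elements outside these windows were not searched.

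The comparison of the titled groups asks which retinoic acid genes distinguish the tooth germ from oral tissue of the same litters. One of the 10 genes was called, Cyp26b1, which was higher in titled tooth germ, and 0 were lower (limma, adjusted p under 0.05 over all genes). Across all 19057 genes 5.81% were called, 2.39% higher and 3.42% lower. Among the 11732 genes above the low-signal level defined below, as 9 of the 10 were, 9.1% were called. Counting each litter as a block, which compares libraries within a litter, 4 of the 10 were called: Cyp26b1, Aldh1a2 and Cyp26a1 were higher and Crabp1 was lower, against 8.88% of all genes (3.86% higher and 5.02% lower). The same 4 genes had an unadjusted p under 0.05 without the block, as did 17.1% of all genes. Of the 10 genes 3 (Cyp26b1, Cyp26a1 and Crabp1) had libraries that did not overlap between the groups, as did 23.1% of all genes. The median log2 difference of the 10 genes was 0.11, and that of all genes was 0.0026. Signals are on the deposited log scale, and those of different genes are not compared with each other because each probe has its own response.

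**Figure D1:**
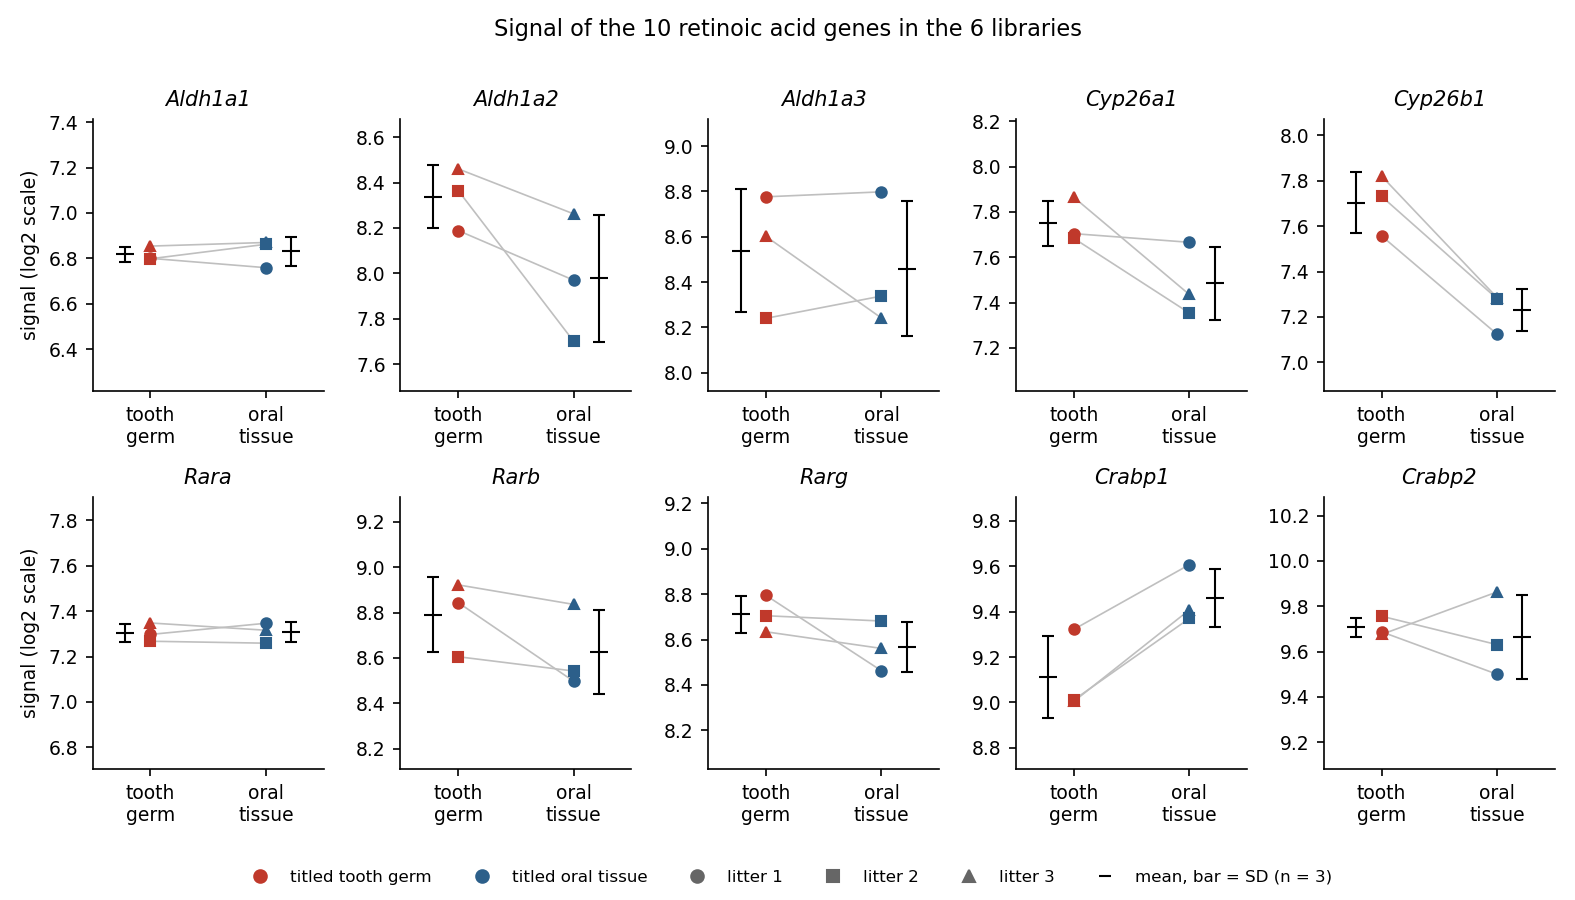
Signal (log2 scale) of the 10 genes in each of the 6 libraries, titled tooth germ (red) left of titled oral tissue (blue), with lines joining libraries of one litter and black bars for mean ± SD (n = 3). Each panel spans the same height of the log scale but starts at its own level. Cyp26b1 is higher and Crabp1 lower in titled tooth germ in all 3 litters without overlap, whereas Rara and Aldh1a1 lie nearly level.

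Both breakdown enzymes had more signal in titled tooth germ in every litter. Cyp26b1 was called with and without the litter block, and Cyp26a1 only with it. Cyp26b1 encodes an enzyme that clears retinoic acid in limb, hindbrain and craniofacial tissue. It had signals of 7.56, 7.73 and 7.82 in titled tooth germ of litters 1, 2 and 3, against 7.12, 7.28 and 7.29 in titled oral tissue. Every tooth germ library lay above every oral tissue library. The difference was 0.47 on the log2 scale (SE 0.0757, 95% interval 0.31 to 0.64, limma adjusted p = 0.00252), or 1.388-fold if the deposited scale is a plain log2. Within the litters it was 0.43, 0.45 and 0.54, the narrowest spread among the 4 genes called with litter as a block. It was called under all 15 alternatives tried, with adjusted p between 0.000152 and 0.0231. Cyp26b1 has only 1 probe, so the mean of all probes could not change its difference, and median centring left it unchanged. By size it ranked 546 of 19057 genes.

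Cyp26a1, the related enzyme that retinoic acid itself induces in many cells, had signals of 7.70, 7.68 and 7.86 in titled tooth germ, against 7.67, 7.35 and 7.44 in titled oral tissue. The groups did not overlap, but in litter 1 the libraries were nearly level (0.04), while the difference was 0.33 in litter 2 and 0.43 in litter 3. The mean difference was 0.27 (SE 0.0857, 95% interval 0.08 to 0.45). It did not pass without the block (limma adjusted p = 0.111) and passed narrowly with it (adjusted p = 0.0489). With the block, the call was lost without litter 2 (0.23, adjusted p = 0.0923) and without litter 3 (0.18, adjusted p = 0.147). It was kept without litter 1 (0.38, adjusted p = 0.00268). These fits hold few libraries, and their p-values rest mainly on variance pooled over all genes. A dimmer Cyp26a1 probe read 6.94, 6.97 and 7.03 in titled tooth germ, against 6.89, 6.90 and 6.92 in titled oral tissue, below the low-signal level of 7.03. That level is the 95th percentile of the mean signals of 1251 olfactory and vomeronasal receptor genes, most of which should be silent in oral tissue.

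Of the 3 synthesis enzymes Aldh1a2 was called, higher in titled tooth germ, with the litter block only, and the other two were not called in either fit. Aldh1a2 encodes the main retinoic acid source of the early embryonic trunk and is active in mesenchyme. It read 8.19, 8.37 and 8.46 in titled tooth germ, against 7.97, 7.70 and 8.26 in titled oral tissue. The groups overlapped, since oral tissue of litter 3 lay above tooth germ of litter 1, yet tooth germ was the higher library in each litter, by 0.22, 0.66 and 0.20. The mean difference was 0.36 (SE 0.125, 95% interval 0.09 to 0.63, limma adjusted p = 0.141, and 0.0265 as the adjusted p of the blocked fit). The size rested on oral tissue of litter 2. Without litter 2 the difference was 0.21, and the blocked call was lost (adjusted p = 0.163). A second Aldh1a2 probe read 7.81, 7.83 and 7.86 in titled tooth germ, against 7.50, 7.42 and 7.74 in titled oral tissue, without overlap. Its difference of 0.28 was called with the block only (limma over all 34885 probes with a single symbol, adjusted p = 0.0671, and 0.0175 as the adjusted p of the blocked fit). Among these probes 4.18% were called without the block.

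Aldh1a3, a retinaldehyde dehydrogenase of eye and nasal epithelium, read 8.78, 8.24 and 8.60 in titled tooth germ, against 8.80, 8.34 and 8.24 in titled oral tissue. The groups overlapped widely and litter differences ran both ways, at -0.02, -0.10 and 0.36. The 95% interval of the mean difference of 0.08 reached from -0.26 to 0.42, so a change as large as that of Cyp26b1 lies just beyond it. A second, dimmer Aldh1a3 probe pointed the other way. It read 7.25, 7.29 and 7.23 in titled tooth germ, against 7.54, 7.36 and 7.42 in titled oral tissue, lower in every litter and without overlap (-0.18, SE 0.0558), but it was not called (limma over all probes, adjusted p = 0.110, and 0.0676 as the adjusted p of the blocked fit). Aldh1a3 thus has no single direction here. Aldh1a1, a dehydrogenase of eye and adult epithelia, lay below the low-signal level in all libraries, at 6.80 to 6.85 in titled tooth germ, against 6.76 to 6.87 in titled oral tissue. Its difference of -0.01 (95% interval -0.09 to 0.06) is that of a probe near background.

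**Figure D2:**
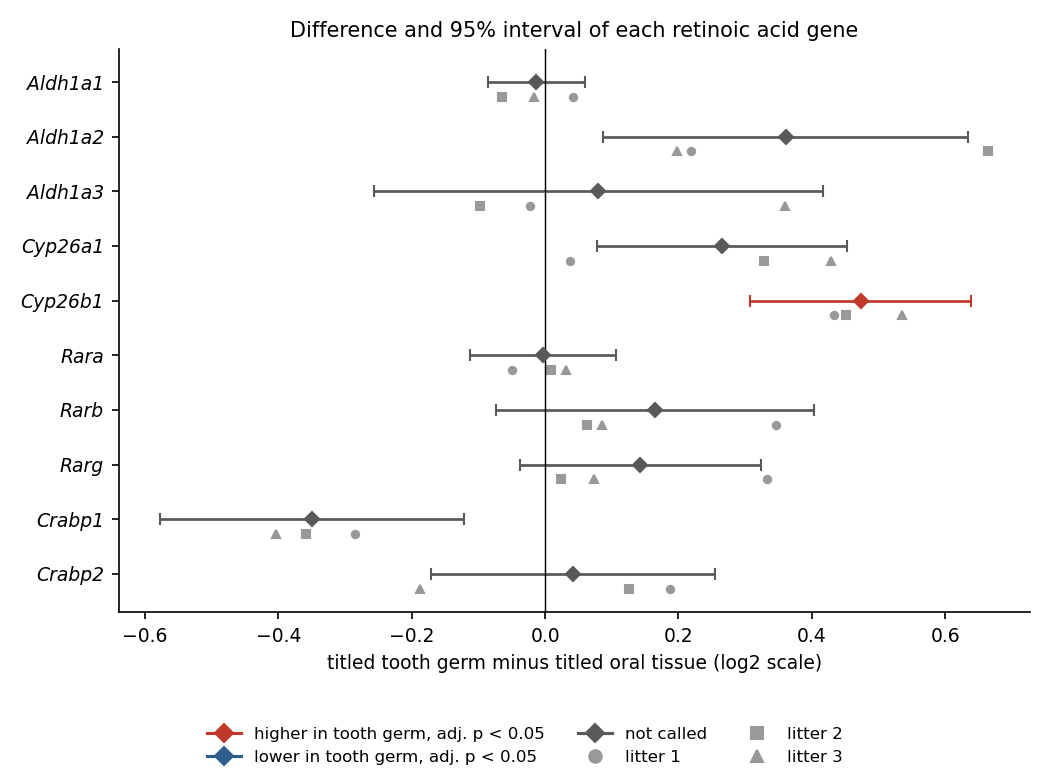
Difference between titled tooth germ and titled oral tissue (log2 scale) for each gene, as diamonds with 95% intervals from limma, and the 3 within-litter differences as grey symbols below each diamond. Only Cyp26b1 (0.47) passes the adjusted threshold without the litter block, and the intervals of Aldh1a2, Cyp26a1 and Crabp1 exclude 0 before adjustment.

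None of the 3 receptors was called (limma, either fit), and without the block 0 of the 3 had an unadjusted p under 0.05. Rara, the broadly expressed alpha receptor, read 7.30, 7.27 and 7.35 in titled tooth germ, against 7.35, 7.26 and 7.32 in titled oral tissue. Its 95% interval, -0.11 to 0.11, was the narrowest of the 10 genes after that of Aldh1a1. Rarb, the receptor gene whose own promoter carries the element shown above, read 8.84, 8.61 and 8.92 in titled tooth germ, against 8.50, 8.54 and 8.84 in titled oral tissue. Tooth germ was higher in each litter, by 0.35, 0.06 and 0.09, but the groups overlapped (0.17, 95% interval -0.07 to 0.40, limma adjusted p = 0.501). A second Rarb probe of like signal gave 0.15, with litter differences of 0.53, 0.08 and -0.14. Rarg, the gamma receptor of skin and cartilage, read 8.79, 8.71 and 8.63 in titled tooth germ, against 8.46, 8.68 and 8.56 in titled oral tissue, again higher in each litter, by 0.33, 0.02 and 0.07 (0.14, 95% interval -0.04 to 0.32, limma adjusted p = 0.429). A second Rarg probe gave 0.11, with litter differences of 0.28, 0.0045 and 0.05. For both Rarb and Rarg, litter 1 held most of the difference at both bright probes. A difference of the same sign in all 3 litters was seen for 41.3% of all genes.

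The carriers differed from each other. Crabp1, which marks neural crest and its mesenchyme as well as some neurons, read 9.32, 9.01 and 9.004 in titled tooth germ, against 9.61, 9.37 and 9.41 in titled oral tissue. All tooth germ libraries lay below all oral tissue libraries, and the litter differences were -0.29, -0.36 and -0.40. The libraries of litter 1 were the highest of both tissues. The mean difference was -0.35 (SE 0.104, 95% interval -0.58 to -0.12), not called without the block (limma adjusted p = 0.0834) and called with it (adjusted p = 0.00785). With the block the difference was -0.38, -0.34 and -0.32 without litters 1, 2 and 3, called each time (adjusted p between 0.00476 and 0.0324). Those fits hold few libraries and are weak evidence that the call is robust. Of the 9 neuronal markers given above 3 were lower in titled tooth germ and 6 were not called, and oral tissue of litter 1 had the highest neuronal mean (8.53) as well as the highest Crabp1. In titled tooth germ Crabp1 was highest in litter 1, but the neuronal mean was highest in litter 2 (7.54). The part of the neuronal markers in the Crabp1 difference was not tested. Crabp2, the carrier that hands retinoic acid to the receptors, read 9.69, 9.76 and 9.68 in titled tooth germ, against 9.50, 9.63 and 9.86 in titled oral tissue. The tooth germ libraries lay close together (SD 0.0435) inside the wider range of oral tissue (SD 0.184), and the litter differences were 0.19, 0.13 and -0.19. The mean difference of 0.04 was not called (95% interval -0.17 to 0.25, limma adjusted p = 0.886).

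**Figure D3:**
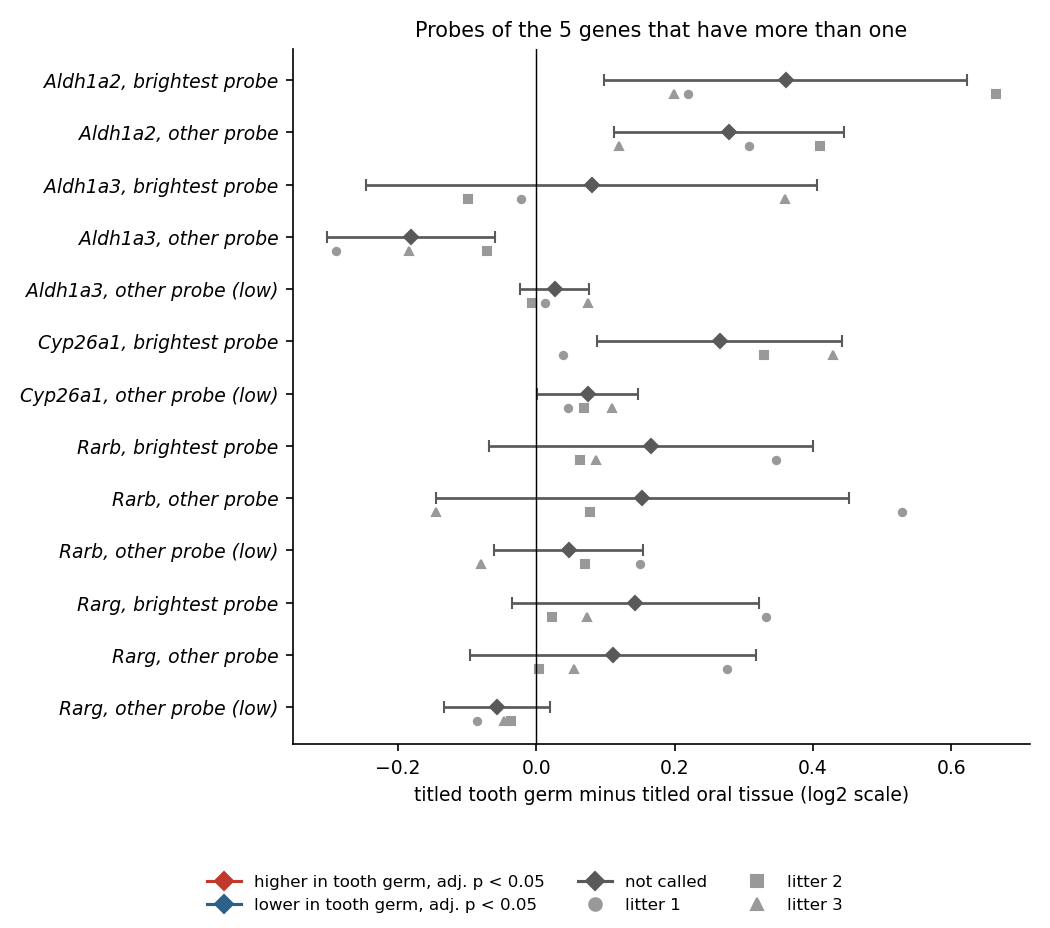
Differences (log2 scale) with 95% intervals for each probe of the 5 genes that have more than one, from limma over all probes with a single gene symbol, with within-litter differences in grey. Probes marked low have a mean signal below the low-signal level of 7.03. The 2 Aldh1a2 probes lie on the same side (0.36 and 0.28), and the 2 brighter Aldh1a3 probes lie on opposite sides (0.08 and -0.18).

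Over the genes with several probes, 6 of 8 additional probes had the sign of the brightest probe, 0 were called by limma without the block and 1 with it, that of Aldh1a2. Of these 8 probes 4 were below the low-signal level, 1 each of Aldh1a3, Cyp26a1, Rarb and Rarg, so their smaller differences carry little information.

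The 3 genes whose pattern over the 6 libraries was closest to that of Cyp26b1 were Ung, Slc25a33 and Ptms. Likeness was the root-mean-square distance between signals centred on each gene's mean, over 11723 genes above the low-signal level. Ung, a uracil-DNA glycosylase, lay at a distance of 0.0375 and read 10.48, 10.55 and 10.68 in titled tooth germ, against 10.001, 10.21 and 10.17 in titled oral tissue. Slc25a33, a mitochondrial nucleotide carrier, lay at 0.0406, and Ptms, which encodes parathymosin, at 0.0518. Like Cyp26b1, all 3 were lowest in litter 1 within each tissue, but they were picked for likeness over these same 6 libraries.

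Other genes of the retinoid pathway were described from 3 lists, with 39 genes measured in all. Some listed genes are not reported here. Of the 39, 1 was higher and 4 were lower in titled tooth germ (limma), against 2.39% higher and 3.42% lower over all genes. Among genes above the low-signal level, as 28 of the 39 were, 9.1% were called in either direction. The median log2 difference was -0.01, and that of all genes was 0.0026. The counts of 1 or 2 called genes in the single lists below were not tested against these shares. Of 18 genes of retinoid supply, 0 rose and Stra6 fell. Stra6 encodes the membrane receptor that takes up retinol from its plasma carrier. It read 7.10, 7.20 and 7.26 in titled tooth germ, against 7.76, 7.71 and 8.08 in titled oral tissue, a difference of -0.67 (SE 0.0915, limma adjusted p = 0.00094). The groups were clearly apart, and the call held under all 15 alternatives. A dim second Stra6 probe, below the low-signal level, gave -0.0030. Rdh10, the retinol dehydrogenase that precedes the Aldh1a step, read 7.11 to 7.15 in titled tooth germ, against 7.10 to 7.22 in titled oral tissue and was not called (-0.03, 95% interval -0.13 to 0.06). Dhrs3, which turns retinaldehyde back to retinol, was not called either (-0.01, 95% interval -0.11 to 0.09). With litter as a block the alcohol dehydrogenase gene Adh1 was also called, at -0.16 (adjusted p = 0.0421), from a mean signal below the low-signal level.

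Of 9 receptor partners and cofactors 0 rose and Rxrg fell. Rxrg, the gamma form of the partner receptor, is known from skeletal muscle and the nervous system. It read 7.40, 7.32 and 7.46 in titled tooth germ, against 8.54, 8.21 and 8.35 in titled oral tissue, a difference as large in size as that of Tgm2 given below (-0.97, SE 0.086, limma adjusted p = 4.46e-05), and was called under all 15 alternatives. The order of the oral tissue libraries, with litter 1 highest and litter 2 lowest, was also that of the mean of the muscle markers (11.74, 11.54 and 11.09 for litters 1, 3 and 2) and of the neuronal markers (8.53, 8.10 and 7.85). In titled tooth germ the orders differed. There Rxrg was highest in litter 3, the muscle mean in litter 1 (9.77) and the neuronal mean in litter 2 (7.54). The part of the muscle and neuronal markers in the Rxrg difference was not tested. The other partners were not called, with Rxra at 0.09 (95% interval -0.03 to 0.21) and Rxrb at 0.06 (95% interval -0.18 to 0.31).

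Of 12 genes known to respond to retinoic acid in other tissues 1 rose and 2 fell. Tgm2, a transglutaminase that retinoic acid induces in many cells, read 10.43, 10.11 and 10.26 in titled tooth germ, against 9.10, 9.07 and 9.72 in titled oral tissue. All tooth germ libraries lay above all oral tissue libraries (0.97, SE 0.154, limma adjusted p = 0.00239), with litter differences of 1.33, 1.04 and 0.55. The call was lost under 1 of 15 alternatives, without litter 1 (0.79, adjusted p = 0.0590). A dim second Tgm2 probe, below the low-signal level, gave 0.02. Meis1, a homeobox cofactor of Hox proteins, was lower by litter differences of -0.29, -0.29 and -0.66 (-0.41, SE 0.104, limma adjusted p = 0.0393), and the orphan receptor gene Nr2f2 by -0.23, -0.46 and -0.29 (-0.33, SE 0.0787, limma adjusted p = 0.0303). Both calls held with litter as a block (adjusted p = 0.0101 for Meis1 and 0.011 for Nr2f2). In blocked fits that left out 1 litter each, Meis1 was called in all 3, and Nr2f2 in all but that without litter 2 (-0.26, adjusted p = 0.0550). Those fits hold few libraries and are weak evidence that a call is robust. The calls were lost in 10 and 8 of 15 alternatives, mostly fits on fewer libraries without the block, in which the differences ran from -0.29 to -0.48 for Meis1 and from -0.26 to -0.38 for Nr2f2. With the mean of all probes they were -0.19 and -0.17 and not called. In the fit over all probes with the block, a second probe of each gene was also lower (-0.20 for Meis1 and -0.18 for Nr2f2). Without the block no other probe of these genes was called, and the Meis1 probe was not called in the fit over all probes (adjusted p = 0.0540). Tbx1, which retinoic acid represses in the pharynx, read 8.72, 9.20 and 9.02 in titled tooth germ, against 8.83, 8.37 and 8.39 in titled oral tissue, with litter 1 opposite in sign to the others, and was not called (0.45, SE 0.14).

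**Figure D4:**
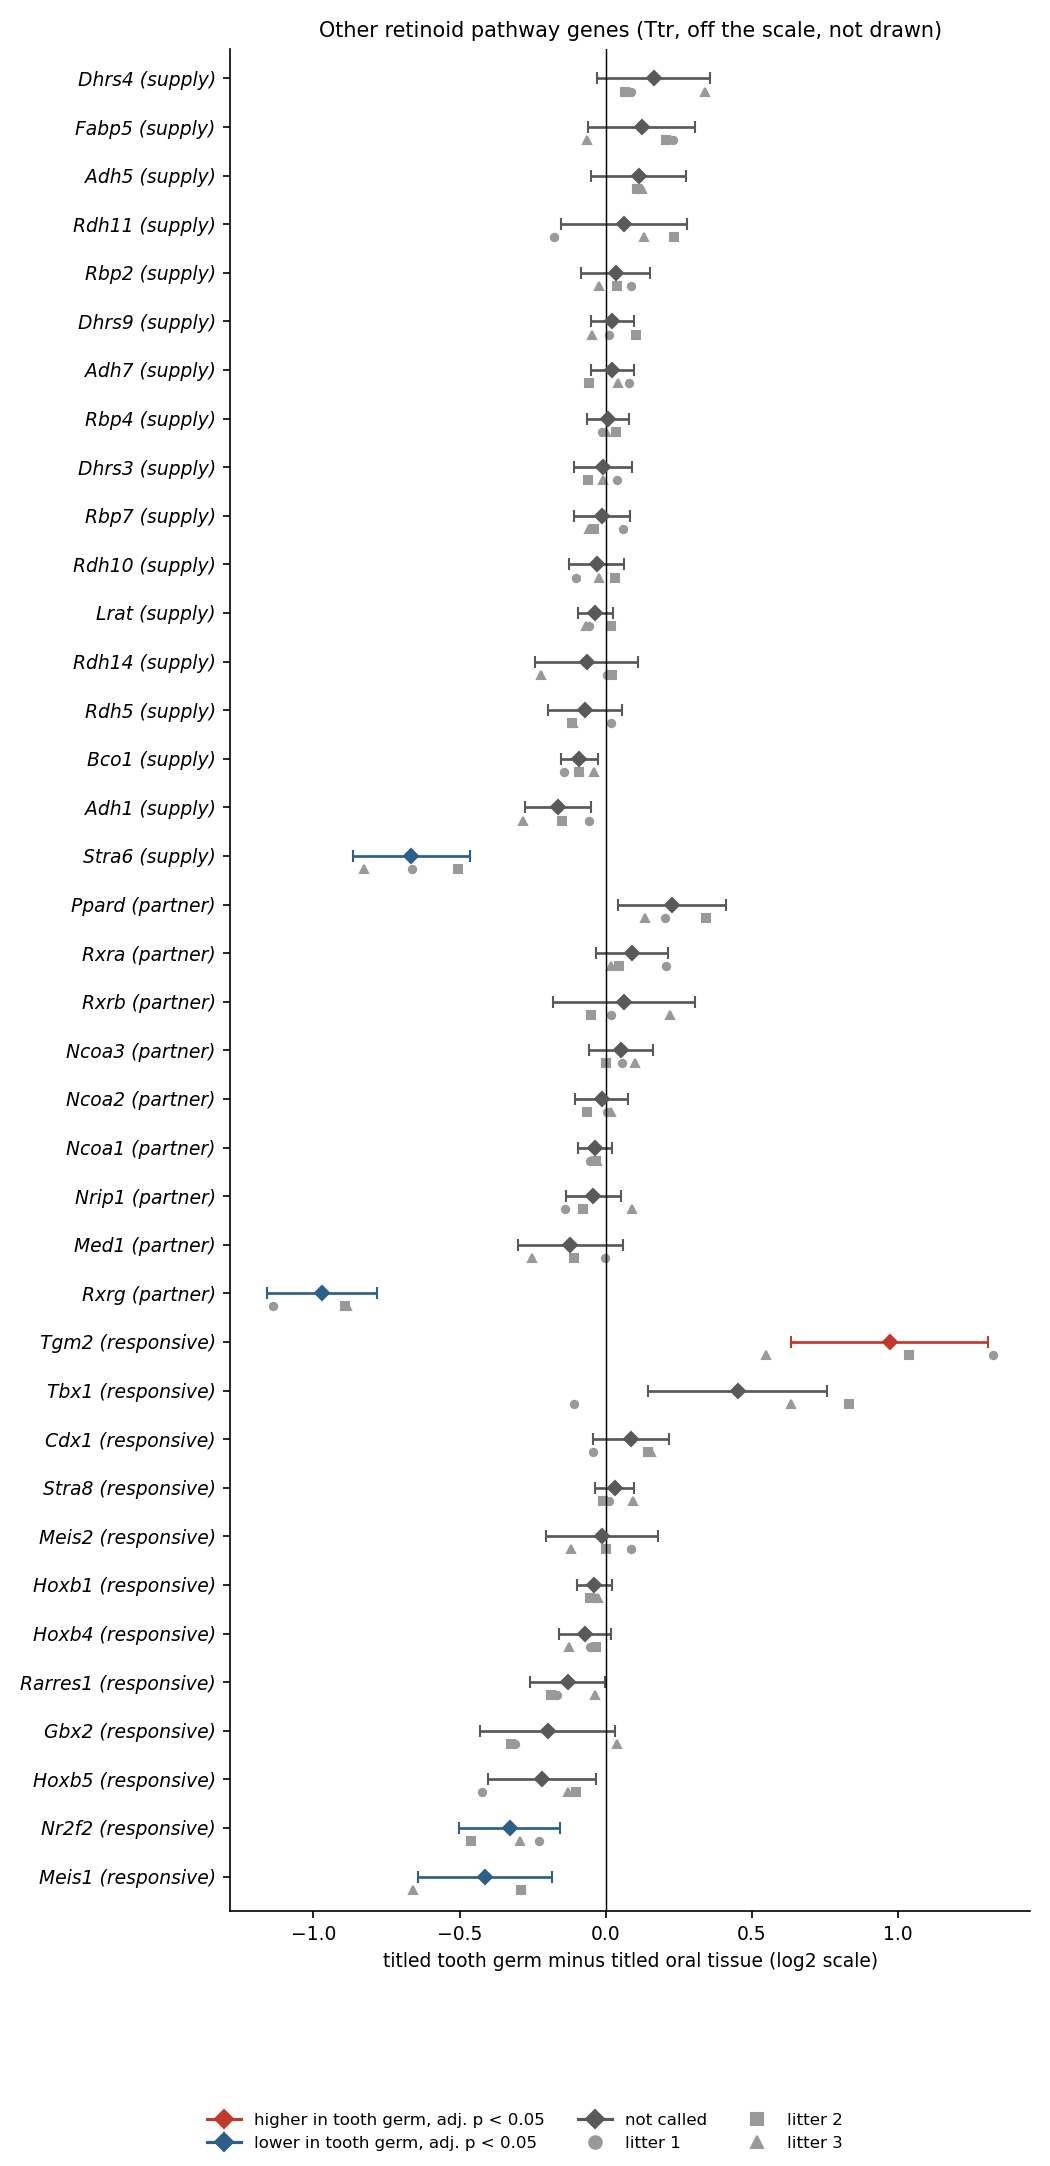
Differences (log2 scale, titled tooth germ minus titled oral tissue) with 95% intervals for 38 of the 39 other retinoid pathway genes, grouped as supply, partners and responsive genes, with within-litter differences in grey. Stra6, Rxrg, Nr2f2 and Meis1 lie below 0 and Tgm2 above it, and the other genes shown were not called without the litter block. Adh1 (-0.16) was called lower with it.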

How the data were processed

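The deposited table holds 1 log2-scale signal per probe and array for 45281 probes. The tool named is lumi 2.8.0, per the submitters' processing notes. Whether the authors took a plain log2 or a variance-stabilising transformation, and any background correction, was not stated in the sources at hand, so differences of dim genes may be understated. After sorting, columns were equal to within 0.000827, so quantile normalization had already been done, and nothing was rescaled. Values ran from 6.61 to 14.88. The number of arrays limits the precision, and detection p-values were not used here.

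Probes were named from the platform annotation: 34885 had 1 symbol, 18 several and 10378 none. The brightest probe of each gene was kept (19057 genes, 18992 matched by identifier to RefSeq with 0 symbols changed). The comparison used limma 3.58.1 (R 4.3.3, lmFit, eBayes with trend, 4 residual degrees of freedom), with Benjamini-Hochberg adjustment over all genes and calls at 0.05. Errors are moderated SEs. P-values measure the spread between 3 pools per tissue. The script was tested on simulated data without litter pairing, with 50 changed genes of each size. It recovered 12% at a log2 size of 0.25, 56% at 0.5 and 94% at 1, with 8 false calls. A gene that was not called may therefore still differ.

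Libraries of 1 number share a litter per the labels. Deviations from group means correlated at 0.413, 0.233 and 0.266 in the 3 same-litter pairs and between -0.267 and -0.0724 otherwise, over 9528 genes. The blocked fit has 2 residual degrees of freedom. Alternatives were that block, median centring, removal of low-signal genes, the mean of all probes, other variance models, and leaving out libraries or litters. Leaving out litters within the blocked fit was added after seeing the data. Those fits have fewer residual degrees of freedom still, and their p-values rest mainly on variance pooled over all genes. Without litter 2 or litter 3 more genes were called higher (751 and 914) than in the full blocked fit (736). They are therefore weak evidence that a call is robust.

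The members and lists were chosen with earlier results of these data known. Named genes are all members, every called gene of the 3 lists, and the 3 genes most alike to a called member. List genes absent from the named probes were left out, and Rdh10, Dhrs3, Rxra, Rxrb, Tbx1, Adh1 and Ttr were named after their values were seen. Promoter sequences are from RefSeq (GRCm38.p6), and the array's genome build was not stated. Cell type markers came from 9 lists, 5 of them described with the results. For the other 4, of 6 endothelial markers 1 was lower, of 6 macrophage and leukocyte markers 4 were lower, of 4 Schwann cell and glial markers 1 was lower, and of 5 cartilage and bone markers 1 was higher in titled tooth germ.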

Additional observations from a re-analysis of the deposited data

How the results depend on the processing

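Median centring, removal of low-signal genes, the mean of all probes, eBayes without a trend and robust shrinkage left the members called at 1 higher and 0 lower. In the blocked fit (litter as the replicate block) these counts were 3 and 1, the higher genes in the whole table numbered 736 against 456, and the lower ones 957 against 651. With the mean of all probes 2 other pathway genes were lower, against 4. Leaving out single libraries or litters gave 1 to 2 members higher and 0 to 1 lower, 195 to 368 genes of the whole table higher and 354 to 663 lower, and 1 to 2 other pathway genes higher and 2 to 4 lower. The lowest whole-table counts came without litter 1. Leaving out litters within the blocked fit, a choice made after seeing the data, gave 1 to 3 members higher and 1 lower, 441, 751 and 914 genes of the whole table higher and 702, 1048 and 1117 lower for litters 1, 2 and 3, and 1 to 3 and 5 to 7 other pathway genes. Without the block, single calls appeared for Crabp1 without tooth germ library 1 (-0.45, adjusted p = 0.0305), Cyp26a1 without oral tissue library 1 (0.36, adjusted p = 0.0229) and Aldh1a2 without oral tissue library 3 (0.50, adjusted p = 0.0216). The block changed no other call of a member or of a called pathway gene. The causes were not tested. The signs of Aldh1a2, Cyp26a1, Cyp26b1, Rarb, Rarg and Crabp1 were the same under all 15 alternatives, whereas those of Aldh1a1, Aldh1a3, Rara and Crabp2, none of them called, turned in 3 to 5. Aldh1a1 had no value once low-signal genes were removed. Signal close to the low-signal level limits Aldh1a1 and the dim probes.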

Other observations

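Ttr, which encodes transthyretin, a plasma carrier of retinol-binding protein and thyroid hormone, read 7.03, 6.97 and 6.93 in titled tooth germ and 7.04, 9.51 and 7.02 in titled oral tissue. Oral tissue of litter 2 stood alone, and the other 5 libraries lay near the low-signal level of 7.03. The gene was singled out after its values were seen, and it was not called (-0.88, SE 0.492, unadjusted p = 0.0999, limma). The same library had the lowest Aldh1a2 (7.70) and Cyp26a1 (7.35) signals of the 6 libraries. Without it the differences were 0.22 for Aldh1a2 and 0.20 for Cyp26a1, and that of Cyp26b1 was 0.50.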
